A study of Mus musculus with 12 samples.

Results

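Established induced pluripotent stem (iPS) cells were set against mouse T cell leukemia, using 6 of the 12 arrays of a study of the reprogramming of NOTCH1-driven leukemia. The members were chosen by sample title: 3 arrays of a line named Notch-1 ips and 3 of a leukemia named Notch-1 leukemia-1. The leukemia cells are labelled as coming from the spleen, and the iPS cells are labelled as established iPS cells and, under cell type, as colonies derived from the leukemia. All 6 arrays carry the mouse genotype R26rtTA;Col1a12lox-4F2A, that is, a doxycycline-responsive activator driven from the Rosa26 locus and an inducible 4-factor reprogramming cassette (Pou5f1 and Sox2 with Klf4 and Myc) at Col1a1. Both groups therefore share the cassette, and the labels do not say whether it was induced when RNA was taken. The growth protocol gives mouse embryonic stem cell medium for the iPS cells. Labels name no sex, age or passage, do not say how NOTCH1 was activated, and call the arrays biological replicates but leave unsaid if each came from its own animal or culture. All 3 leukemia titles carry the same leukemia number. The p-values below therefore measure the spread between these arrays, which may be technical.

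Mouse pluripotent cells are held in their state by a circuit of transcription factors around Pou5f1, Sox2 and Nanog, supported by LIF signalling, and grow as compact epithelial colonies joined by E-cadherin. T cell leukemia driven by NOTCH1 resembles developing thymocytes: cells express CD3 chains, coreceptors and T lineage transcription factors, and the cleaved Notch receptor acts with Rbpj on target genes such as Myc, Hes1, Dtx1 and Ptcra. Reprogramming silences the somatic programme of the starting cell and activates the pluripotency circuit from the endogenous loci. Feeder fibroblasts are often used beneath pluripotent colonies, and spleen tissue holds many other blood cells. The labels do not say whether feeders were used or whether leukemia cells were purified.

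Levels are log2 values of the deposited normalised intensities, 1 per gene and array, and differences are iPS cells minus leukemia on the log2 scale with the standard error of the limma fit (n = 3 arrays per group throughout). A gene was called when its Benjamini-Hochberg adjusted p was under 0.05 and its difference at least 2-fold. Of 22180 genes measured, 3162 (14.3%) were called, 1773 (7.99%) higher and 1389 (6.26%) lower in iPS cells. These shares are the background for every count of called genes in a list or family below. At an adjusted p under 0.05 alone, 10525 genes (47.5%) differed, and for 12534 genes (56.5%) the 3 iPS arrays all lay on one side of the 3 leukemia arrays. By at least 4-fold, 1149 genes (5.18%) differed: 686 genes (3.09%) were higher and 463 (2.09%) lower. The higher genes made up 56.1% of the calls, and this share was 49.2% when arrays were centred on their medians, which moved the median difference of all genes from -0.03 to -0.14. Replicates correlated at 0.994 or more within a group, against 0.891 to 0.897 between groups. Quantile normalization removes any shift shared by most genes, no detection values were used, and having 3 arrays a group limits how precise each value is.

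The largest increases joined pluripotency regulators to genes of the extracellular matrix. Zfp640, a zinc finger gene, read 11.11, 11.13 and 11.14 on the iPS arrays and 2.90, 3.02 and 3.07 on the leukemia arrays, a difference of 8.13 ± 0.08 (adjusted p = 6.02e-10). Nanog, the homeodomain factor of the pluripotency circuit, read 12.32, 12.39 and 12.21 on the iPS arrays and 4.99, 4.32 and 4.85 on the leukemia arrays, a difference of 7.59 ± 0.16 (adjusted p = 6.83e-09). In both, the iPS arrays lay tightly together and far above all leukemia arrays. Next came Nid1 (nidogen, a basement membrane protein) at 7.36 ± 0.12 (4.70 on its other probe set), Bex1 (an X-linked adaptor) at 7.26 ± 0.19 and Tdgf1 (Cripto, the Nodal co-receptor) at 7.19 ± 0.13. Nr0b1 (Dax1, an orphan nuclear receptor of embryonic stem cells) rose by 6.92 ± 0.14, and Enah, an actin-tip regulator, by 6.73 ± 0.14. A second zinc finger gene, Zfp981, rose by 6.68 ± 0.23. The rest of the 12 largest were Mmp3 (stromelysin, 6.24 ± 0.10), Fn1 (fibronectin, 6.06 ± 0.07), Fgfbp1 (a carrier of fibroblast growth factors, 6.04 ± 0.13) and Fbxo15 (an F-box gene long used as a reporter of pluripotency, 6.02 ± 0.11). Zinc finger genes of such clusters can be near-identical, and a probe set may read more than 1 of them.

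The largest decreases were T cell and leukocyte genes. Cd3g, a signalling chain of the T cell receptor, read 4.57, 5.27 and 4.38 on the iPS arrays and 12.02, 12.05 and 12.08 on the leukemia arrays, a difference of -7.31 ± 0.20 (adjusted p = 2.02e-08). Slamf6, a lymphocyte surface receptor, read 4.64, 5.02 and 4.56 on the iPS arrays and 11.46, 11.55 and 11.53 on the leukemia arrays, a difference of -6.78 ± 0.12 (adjusted p = 3.86e-09). Its other probe set gave -3.19. No iPS array came near a leukemia array for either gene on the probe sets used, and iPS replicate 2 was the highest of the 3 iPS arrays in both. Prss2, a trypsinogen gene that lies within the T cell receptor beta locus, fell by 6.40 ± 0.14. Ptprc (CD45, the pan-leukocyte phosphatase) and Cd3d each fell by 6.32, with standard errors of 0.12 and 0.18. The Ikaros family factors Ikzf3 and Ikzf1 differed by -6.15 ± 0.20 and -6.09 ± 0.23, and Lef1, a T lineage and Wnt factor, by -5.97 ± 0.16. Trav9d-3, a T cell receptor alpha variable segment, differed by -6.11 ± 0.12 on the probe set used and by -0.63 to -0.68, uncalled, on 3 of its other 4. Ngp, a neutrophil granule gene, differed by -5.96 ± 0.24, Fyb, an adaptor of T cell receptor signalling, by -5.87 ± 0.11, and Cd8b1, a coreceptor chain, by -5.78 ± 0.29. Cd8b1 read 5.38, 6.55 and 5.29 on the iPS arrays, so replicate 2 stood above the other two.

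**Figure D1:**
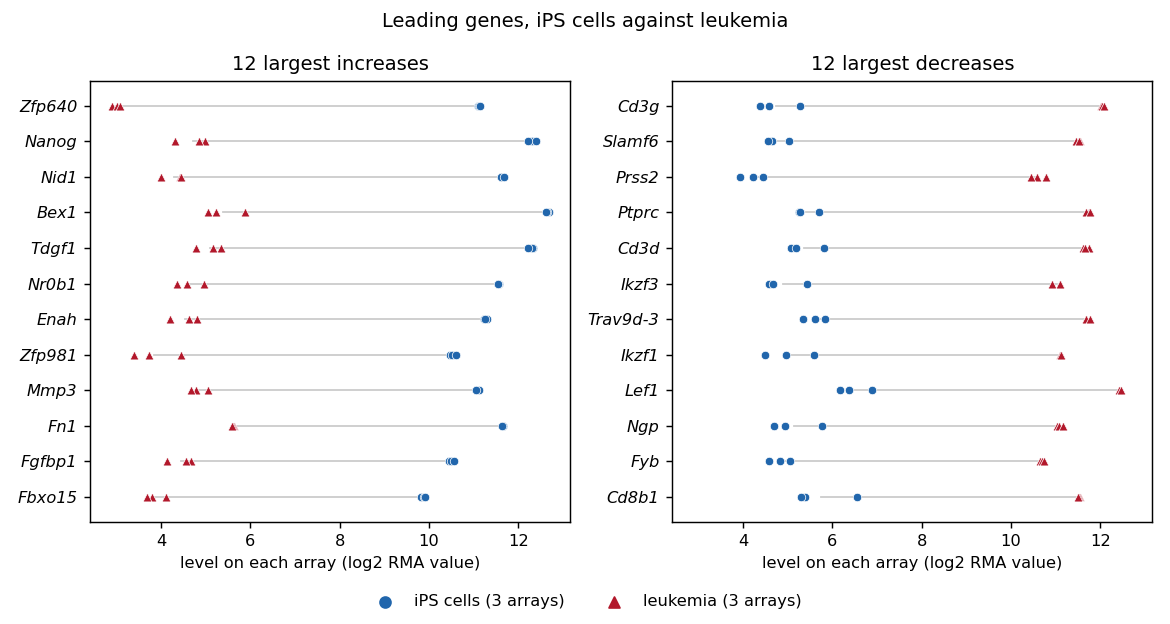
Level on every array (log2) of the 12 genes with the largest increases and the 12 with the largest decreases in iPS cells against leukemia, with blue circles for the 3 iPS arrays, red triangles for the 3 leukemia arrays and grey lines joining the group means. The groups are far apart for all 24 genes, from Zfp640 with 11.11 to 11.14 in iPS cells against 2.90 to 3.07 in leukemia, to Cd3g with 4.38 to 5.27 against 12.02 to 12.08.

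**Figure D2:**
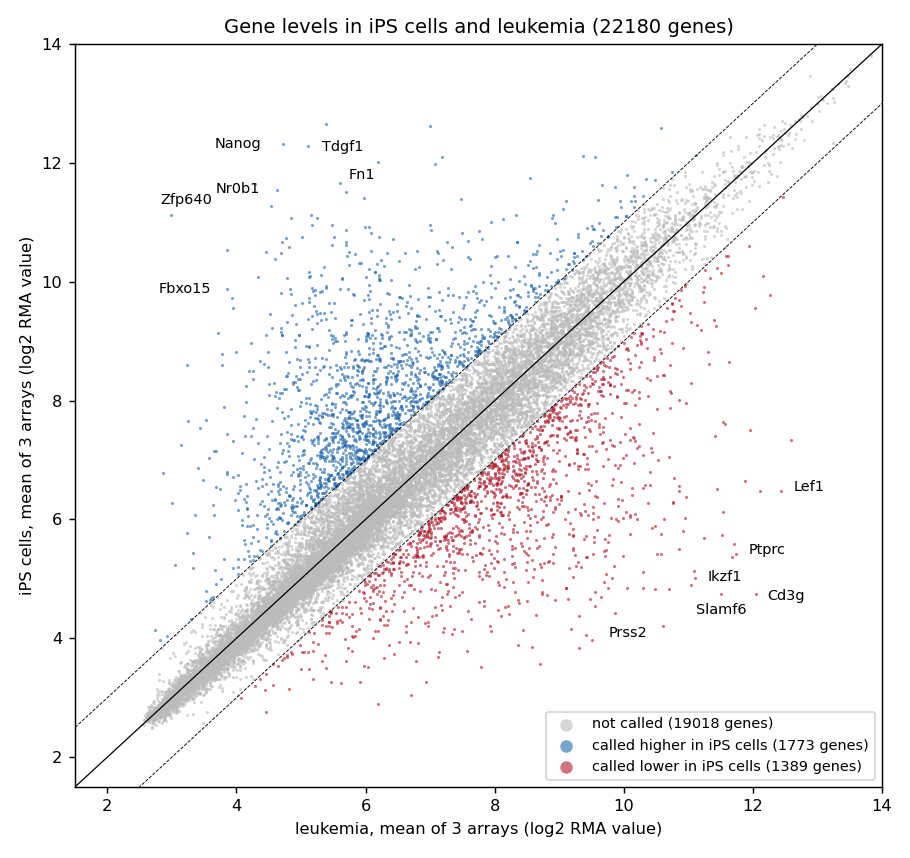
Mean level of each of 22180 genes in leukemia (horizontal axis) and in iPS cells (vertical axis), log2, 3 arrays each, with a solid line at equal levels and dashed lines at a 2-fold difference. The 1773 genes called higher are blue, the 1389 called lower red and the 19018 not called grey, and Nanog and Cd3g lie far from the line at opposite corners.

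The windows around the starts of leading genes are shown to set side by side the promoters of the first genes with a promoter entry in each direction. Zfp640, the largest increase, is not among them. Each runs from 250 bases before the start to 50 after it, on the gene's strand, from RefSeq on GRCm38.p6. The windows are chr6:122707239-122707538 for Nanog (plus strand), chr13:13437352-13437651 for Nid1 (plus), chrX:136215464-136215763 for Bex1 (minus), chr9:44980382-44980681 for Cd3g (minus), chr1:171917212-171917511 for Slamf6 (plus) and chr6:41521526-41521825 for Prss2 (plus). Nanog has 2 starts in the table and only 1 is shown. Capitals mark matches, on either strand, to the 14 motifs searched, which join a planned set to motifs added to it.
Nanog: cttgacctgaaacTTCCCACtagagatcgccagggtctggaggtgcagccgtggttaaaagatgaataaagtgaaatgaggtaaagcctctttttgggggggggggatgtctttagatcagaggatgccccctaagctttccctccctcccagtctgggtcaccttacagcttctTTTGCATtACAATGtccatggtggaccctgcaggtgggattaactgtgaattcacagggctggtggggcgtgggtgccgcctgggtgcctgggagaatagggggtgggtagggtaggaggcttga
Nid1: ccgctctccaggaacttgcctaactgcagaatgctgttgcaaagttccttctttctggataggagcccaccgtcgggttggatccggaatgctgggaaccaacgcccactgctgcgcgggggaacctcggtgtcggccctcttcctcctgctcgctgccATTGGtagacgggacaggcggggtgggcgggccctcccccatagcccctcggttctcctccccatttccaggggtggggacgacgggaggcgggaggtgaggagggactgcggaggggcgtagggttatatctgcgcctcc
Bex1: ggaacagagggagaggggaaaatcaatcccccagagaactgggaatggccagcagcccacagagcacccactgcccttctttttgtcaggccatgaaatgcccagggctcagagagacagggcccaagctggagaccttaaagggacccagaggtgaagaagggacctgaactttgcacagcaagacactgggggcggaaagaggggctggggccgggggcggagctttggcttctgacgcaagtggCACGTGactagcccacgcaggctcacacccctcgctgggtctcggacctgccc
Cd3g: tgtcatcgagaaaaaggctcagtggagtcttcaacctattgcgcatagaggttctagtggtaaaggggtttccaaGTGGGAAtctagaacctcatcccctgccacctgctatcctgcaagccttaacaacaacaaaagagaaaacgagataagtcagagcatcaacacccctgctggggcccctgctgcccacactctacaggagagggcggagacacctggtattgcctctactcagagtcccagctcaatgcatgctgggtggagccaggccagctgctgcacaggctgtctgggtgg
Slamf6: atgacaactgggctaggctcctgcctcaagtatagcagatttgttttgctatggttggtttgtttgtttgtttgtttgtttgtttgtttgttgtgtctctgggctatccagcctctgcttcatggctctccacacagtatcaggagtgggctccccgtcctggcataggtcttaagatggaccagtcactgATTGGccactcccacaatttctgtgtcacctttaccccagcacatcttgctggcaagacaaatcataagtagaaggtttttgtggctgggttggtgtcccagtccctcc
Prss2: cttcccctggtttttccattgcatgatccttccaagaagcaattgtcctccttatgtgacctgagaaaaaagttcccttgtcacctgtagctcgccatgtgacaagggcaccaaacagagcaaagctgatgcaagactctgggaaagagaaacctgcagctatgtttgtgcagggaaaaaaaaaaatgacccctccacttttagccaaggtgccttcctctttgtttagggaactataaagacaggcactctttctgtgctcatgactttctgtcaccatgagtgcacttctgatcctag

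The Nanog window held a short POU-factor motif (TTTGCAT) 75 bases before the start and a SOX core (ACAATG) 67 bases before it, with 1 base between them. TTTGCAT overlaps the octamer ATGCAAAT read on the other strand, and ACAATG overlaps the longer SOX motif AACAATG. Neither longer motif matched the Nanog window. The short forms stand at the end of the list of 14, where motifs were added to the planned set. These letters are common: TTTGCAT was in 4.23% of the 16918 promoters of measured genes and ACAATG in 10.9%. The RBPJ motif (GTGGGAA) was in the windows of both Nanog (237 bases before the start) and Cd3g (175 bases before), and in 6.18% of all promoters. The Nid1 and Slamf6 windows held a CCAAT box, 91 and 59 bases before the start (38.4% of all promoters), and the Bex1 window held the E-box CACGTG (8.2%). The Prss2 window matched none of the 14 motifs. Such matches describe letters only and are not sites of binding.

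Base composition differed between the promoters of strongly lower genes and those of the rest. The median ratio of observed to expected CpG was 0.377 in the 339 promoters of genes lower by at least 4-fold and 0.586 in the 492 of genes higher by at least 4-fold, against 0.582 for all 16918. A ratio of 0.6 or more was reached by 35.1%, 48.6% and 48.7% of them in that order. With the 2-fold rule the shares were 52.1% for lower and 57.9% for higher genes. The octamer ATGCAAAT was in 3.86% of promoters higher by at least 4-fold, 2.06% of those lower and 1.7% of all. With the 2-fold rule this order turned, with 1.94% of higher and 2.24% of lower promoters. The RUNX motif TGTGGTT was in 8.85% of promoters lower by at least 4-fold, 5.28% of those higher and 4.59% of all. With the 2-fold rule its shares were 5.32% for lower and 4.33% for higher genes. The ETS motif CCGGAAGT was rarer in both 4-fold sets (0.885% of lower and 1.22% of higher) than overall (5.24%). The GC box GGGCGGGG was in 20.4% of lower, 33.1% of higher and 23.9% of all promoters. With the 2-fold rule the GC box was in 28.9% of lower and 35.3% of higher promoters. The SOX motif AACAATG was in 2.03% of promoters higher by at least 4-fold, 2.95% of those lower and 3.37% of all. These shares are descriptions of the windows, with no test.

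The pluripotency programme was broadly higher in iPS cells. Of 18 genes measured in the naive pluripotency list, 15 rose, with a median difference of 3.15 against -0.03 for all genes. The 15 include Tcf7l1, a repressor of the circuit (2.99 ± 0.13), and the ligand Fgf4 (3.36 ± 0.12). Behind Nanog and Nr0b1 stood Tfcp2l1, a factor of the LIF-responsive naive circuit, which read 10.64, 10.72 and 10.61 on the iPS arrays and 4.85, 4.98 and 4.27 on the leukemia arrays, a difference of 5.96 ± 0.17 (adjusted p = 2.22e-08). All its iPS arrays lay above all its leukemia arrays. The 3 not called were Klf2 (0.54 ± 0.08), Zfp281 (0.63 ± 0.09) and Gbx2 (0.87 ± 0.11, and -0.13 on its other probe set), each under the 2-fold minimum. In the second pluripotency list, which holds the Dppa family, Lin28a and other genes of embryonic stem cells, 18 of 24 rose (median 2.65), led by Tdgf1, Fbxo15 and Pla2g1b, a secreted phospholipase (5.42 ± 0.22). Its least different members were Igf2bp3 (0.35 ± 0.07), Dppa5a (0.40 ± 0.10) and Lin28b (0.49 ± 0.12). Over the 18 genes of the naive list the mean level was 9.46 to 9.47 on the iPS arrays and 6.10 to 6.14 on the leukemia arrays. With Nanog and Tfcp2l1 among its members, this fits the iPS label by its defining markers.

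The 4 factors of the cassette differed widely among themselves. Sox2 read 10.55, 10.48 and 10.42 on the iPS arrays and 4.50, 4.33 and 5.25 on the leukemia arrays, a difference of 5.80 ± 0.21. Pou5f1 read 8.10, 8.08 and 8.14 on the iPS arrays and 6.62, 6.31 and 6.68 on the leukemia arrays, a difference of 1.57 ± 0.10, and Klf4 rose by 1.07 ± 0.08 (0.96 and not called with median centring). Myc read 9.02, 8.83 and 8.99 on the iPS arrays and 10.24, 10.18 and 10.19 on the leukemia arrays and fell by 1.26 ± 0.08. The groups did not overlap for any of the 4, whose adjusted p-values ran from 8.04e-08 (Sox2) to 8.74e-06 (Klf4). Whether these probe sets read cassette transcripts as well as the endogenous genes was not examined.

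Of 11 formative and primed epiblast genes 4 rose, among them Otx2 (an epiblast homeodomain factor, 2.57 ± 0.09), Cdh2 (N-cadherin, 2.55 ± 0.08) and the de novo methyltransferase Dnmt3b (2.31 ± 0.09). Cer1 (-0.09 ± 0.10), Sox3 (0.30 ± 0.14) and Fgf5 (0.43 ± 0.10), the last a classic primed marker, were not called. Of 14 2-cell-like genes, which in embryonic stem cell cultures are known from rare cells that resemble the early embryo, 10 rose (median 2.09). Zscan4e read 9.67, 9.90 and 9.60 on the iPS arrays and 3.97, 3.97 and 3.83 on the leukemia arrays, a difference of 5.80 ± 0.10. Usp17lc and Zscan4a followed with 5.36 ± 0.11 and 4.86 ± 0.11, while Tdpoz4 (0.17 ± 0.10) and Tcstv3 (0.19 ± 0.17) were not called. Members of these tandem families share sequence, so single genes cannot be told apart with certainty.

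Among 14 primitive endoderm genes 3 rose, the laminin chains Lamb1 (4.18 ± 0.09) and Lama1 (3.57 ± 0.10) and the receptor Pdgfra (1.42 ± 0.12). The endoderm regulator Gata6 read 4.93, 4.58 and 4.74 on the iPS arrays and 4.77, 4.62 and 4.85 on the leukemia arrays, and its groups overlapped (difference 0.00 ± 0.11). In the trophoblast list 4 of 14 rose, led by the X-linked homeobox genes Rhox5 (3.42 ± 0.11) and Rhox6 (2.44 ± 0.11) and by Tead4 (2.27 ± 0.10). Gata3, which trophoblast and T cells both use, fell by 1.80 ± 0.12, and its other probe set gave -0.59. Elf5, a trophoblast factor, differed by -0.03 ± 0.10. Of 31 germline genes 13 rose (median 0.55), led by Rpl10l (a testis paralogue of a ribosomal protein, 5.01 ± 0.23), Dazl (a germ cell RNA-binding protein, 4.26 ± 0.08) and Rhox5.

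MicroRNA genes of both states were on the array. Mir290a, from the cluster that dominates mouse embryonic stem cells, read 5.75, 5.85 and 6.08 on the iPS arrays and 4.31, 3.98 and 4.19 on the leukemia arrays, a difference of 1.73 ± 0.12 (adjusted p = 3.49e-06). It was the only 1 of 6 pluripotency-associated microRNA genes called. The other listed genes of its cluster had no entry among the genes measured, so Mir290a alone stood for that cluster. The rest of the 6 were primed-state Mir302 and Mir367 genes. Of these, Mir302b (0.03 ± 0.13), Mir302c (-0.06 ± 0.10) and Mir367 (0.06 ± 0.09) read near 3 in both groups. Of 13 blood microRNA genes 3 fell: Mir181b-1, known from thymocyte development, by 3.65 ± 0.17, the pan-leukocyte Mir142 by 2.16 ± 0.11 and Mir181a-1 by 1.70 ± 0.14. Mir181b-1 read 2.92, 3.28 and 2.94 on the iPS arrays and 7.10, 6.54 and 6.46 on the leukemia arrays, without overlap. A probe set reads the precursor locus and does not separate the mature arms. The mature products of the 4 called genes are printed to show which seeds they share, with the seed (bases 2 to 8) in capitals, from RefSeq on GRCm38.p6. They lie at chr7:3218639-3218660 and chr7:3218674-3218697 (miR-290a), chr11:87756867-87756887 and chr11:87756903-87756925 (miR-142a), chr1:137966468-137966490 and chr1:137966508-137966529 (Mir181a-1) and chr1:137966650-137966673 and chr1:137966690-137966710 (Mir181b-1), all on the plus strand.
mmu-miR-290a-5p: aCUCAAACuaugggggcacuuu
mmu-miR-290a-3p: aAAGUGCCgccuaguuuuaagccc
mmu-miR-142a-5p: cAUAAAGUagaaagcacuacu
mmu-miR-142a-3p: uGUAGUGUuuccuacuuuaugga
mmu-miR-181a-5p: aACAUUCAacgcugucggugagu
mmu-miR-181a-1-3p: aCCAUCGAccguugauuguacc
mmu-miR-181b-5p: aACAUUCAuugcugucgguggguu
mmu-miR-181b-1-3p: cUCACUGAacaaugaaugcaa

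The 5p products of Mir181a-1 and Mir181b-1, neighbours on chromosome 1, share the seed ACAUUCA, and their 3p products have different seeds. The second copies of these genes on chromosome 2, which give the same 5p products, were not called: Mir181a-2 differed by -0.35 and Mir181b-2 by -0.57 (both named after their values were seen).

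T cell receptor genes of the leukemia were lower almost throughout. Of 25 CD3 chains and proximal signalling genes of the T cell receptor, 24 fell, with a median difference of -3.74. Cd3e, the chain that anchors the receptor complex, read 6.43, 6.85 and 6.63 on the iPS arrays and 11.86, 11.83 and 11.92 on the leukemia arrays and fell by 5.23 ± 0.11. The member not called was the kinase Tec (-0.59 ± 0.10). Over this list the mean level was 9.53 to 9.61 on the leukemia arrays, which fits the T cell label of the leukemia by its defining markers, and 5.83 to 6.01 on the iPS arrays. Of 27 surface receptors and coreceptors 22 fell (median -3.34), with Cd27, a costimulatory receptor, at -5.02 ± 0.12 behind Slamf6 and Cd8b1. Il2ra (-0.51 ± 0.13), Ccr9 (-0.88 ± 0.12) and Ccr7 (-0.91 ± 0.15) were not called, and all 3 levels in leukemia were under 7.2.

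Of 24 T lineage transcription factors 15 fell, led by Ikzf3, Ikzf1 and Lef1. Tox2 (-0.14 ± 0.09), Zbtb7b (0.35 ± 0.08) and Tcf3 (-0.47 ± 0.09) were not called. Of 10 genes of the pre-T cell receptor and of V(D)J recombination 4 fell. Dntt, the terminal transferase of immature lymphocytes, read 4.63, 5.06 and 4.84 on the iPS arrays and 9.94, 10.20 and 10.01 on the leukemia arrays and fell by 5.21 ± 0.12. Xrcc6 (Ku70, a broadly used end-joining protein) fell by 2.86 ± 0.08 and Ptcra (the pre-T alpha chain, a Notch target) differed by -2.66 ± 0.07. The end-joining genes Trp53bp1 (0.01 ± 0.09), Nhej1 (-0.03 ± 0.12) and Prkdc (-0.43 ± 0.08) were not called.

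Genes of the Notch pathway went both ways, and 26 of 39 were not called. Notch1, the receptor that names the model, read 8.59, 8.66 and 8.60 on the iPS arrays and 11.33, 11.31 and 11.33 on the leukemia arrays and fell by 2.71 ± 0.07 (adjusted p = 1.46e-08), with tight and well separated groups. Whether its probe set reads a transcript particular to the model was not examined. Of 39 pathway genes 9 fell (23.1%, against 6.26% of all genes) and 4 rose (10.3%, against 7.99%), with a median of -0.16. Among the lower genes were Heyl (a Notch-induced repressor, -2.64 ± 0.15) and Mfng (Manic fringe, which modifies Notch, -2.55 ± 0.10). Among the higher were Jag1 (a ligand, 3.10 ± 0.09), Numbl (a Numb relative, 2.27 ± 0.15) and Rbpj (the DNA-binding partner of Notch, 1.64 ± 0.09). Rbpj read 9.29, 9.09 and 9.02 on the iPS arrays and 7.47, 7.47 and 7.54 on the leukemia arrays, without overlap. The protease component Aph1a (-0.03 ± 0.10), Numb (0.04 ± 0.08) and the ligand Dll3 (0.12 ± 0.09) were not called.

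Genes shared by all blood cells fell with the T cell genes. Of 33 pan-haematopoietic genes 29 fell, with a median of -4.06. Rac2, a GTPase of blood cells, fell by 5.25 ± 0.15, behind Ptprc. Cd44 (-0.10 ± 0.11), Laptm5 (-0.42 ± 0.07) and Evl (-0.59 ± 0.09) were not called. Laptm5, a lysosomal protein of leukocytes, read 9.76, 9.73 and 9.75 on the iPS arrays, close to its 10.17, 10.17 and 10.15 on the leukemia arrays, though the groups did not overlap. Of 27 blood transcription factors 12 fell, with Myb at -5.64 ± 0.18 and Stat5b at -3.69 ± 0.10 behind Ikzf1 (Myb's other probe set gave -1.40), and 1 rose, Meis1 (1.27 ± 0.10). Tal1 (-0.10 ± 0.11), Hhex (0.12 ± 0.09) and Gata1 (-0.19 ± 0.15) were not called.

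Neutrophil markers were mostly lower in iPS cells, while most B cell, natural killer and erythroid markers were not called. The lower shares were 88.9%, 33.3%, 35.7% and 38.5% in that order, against 6.26% of all genes. The part of these blood cells in the T cell results was not tested. In bulk RNA, fewer cells of a type and less RNA per cell cannot be told apart. Of 18 neutrophil granule and neutrophil markers 16 fell (median -2.31). Ngp read 4.68, 5.76 and 4.94 on the iPS arrays and 11.04, 11.07 and 11.16 on the leukemia arrays, Camp, an antimicrobial peptide, fell by 5.53 ± 0.18 and S100a8 (calgranulin) by 5.45 ± 0.15. The mean level of the list was 8.04 to 8.19 on the leukemia arrays and 5.23 to 5.40 on the iPS arrays. Cebpe (-0.76 ± 0.08) and Ctsg (-0.95 ± 0.12) were not called. Of 18 B cell markers 6 fell, among them Ighm (-4.08 ± 0.10), Jchain (-2.58 ± 0.14) and Bank1 (-1.60 ± 0.12), and 1 rose, Ebf1 (1.28 ± 0.10). The other 6 probe sets of Ighm gave -6.39 to -0.10, and 4 of them were called. Of 14 natural killer and cytotoxic markers 5 fell, with Gzma at -4.73 ± 0.16 and Tyrobp at -3.39 ± 0.15. Of 13 erythroid markers 5 fell, with Car1 at -3.03 ± 0.16 and the anion exchanger Slc4a1 at -2.16 ± 0.15.

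Macrophage and dendritic cell markers went both ways. Of 24, 7 fell and 3 rose. Itgam (CD11b) differed by -2.56 ± 0.17, Ctss (cathepsin S) by -2.46 ± 0.17 and Cd14 by -2.25 ± 0.12, whereas Axl, a receptor kinase, rose by 2.90 ± 0.08, Hmox1 (haem oxygenase) by 2.46 ± 0.08 and Cd68 (a lysosomal protein) by 1.36 ± 0.08. With all 12 arrays in the fit, 2 members fell. Of 9 megakaryocyte markers the only 1 called was Itgb3 (1.17 ± 0.09). That share, 11.1%, lies near the 7.99% of all genes called higher. Of 16 endothelial and splenic stroma markers 3 rose (Tek 2.08 ± 0.12, Eng 1.91 ± 0.10 and Tie1 1.01 ± 0.11) and Pecam1, which pluripotent cells also carry, fell by 1.04 ± 0.07. The higher share was 18.8%, against 7.99% of all genes, and the lower share, 6.25%, lies near the 6.26% of all genes. Tie1 fell under the 2-fold minimum (0.94 to 0.99) without iPS replicate 1, iPS replicate 3 or leukemia replicate 1. Cdh5, a defining endothelial cadherin, read 5.29, 5.38 and 5.28 on the iPS arrays and 5.29, 5.39 and 5.36 on the leukemia arrays, and its groups overlapped.

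**Figure D3:**
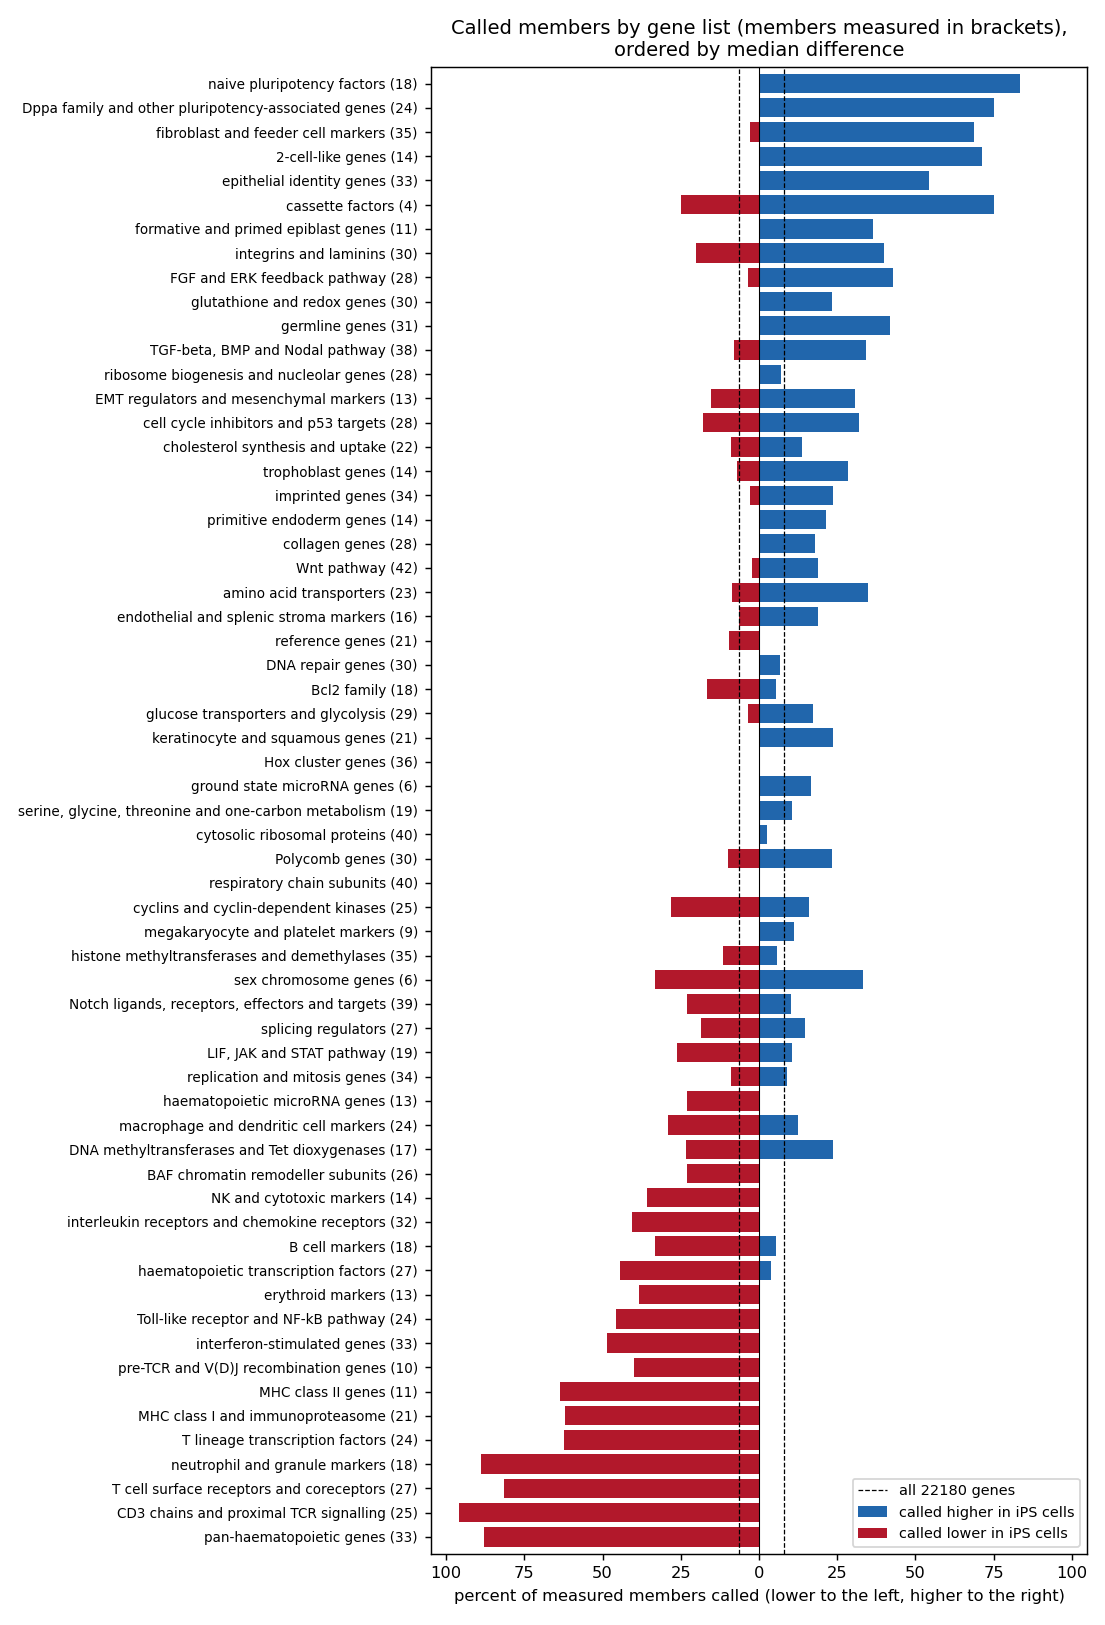
Percent of the measured members of 61 gene lists that were called higher (blue, to the right) or lower (red, to the left) in iPS cells than in leukemia, ordered by the median difference of the list, with dashed lines for all 22180 genes (7.99% higher, 6.26% lower). Naive pluripotency factors lie at the top with 83.3% higher, and pan-haematopoietic genes (87.9% lower) and CD3 and T cell receptor signalling genes (96% lower) at the bottom.

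Of 32 interleukin and chemokine receptors 13 fell, led by Il12rb2 (-4.18 ± 0.08), Il2rb (-3.98 ± 0.12) and the homing receptor Cxcr4 (-3.95 ± 0.11). In the LIF, JAK and STAT list, Lifr, the LIF receptor that sustains naive cells, rose by 3.12 ± 0.15 and the feedback inhibitor Socs2 (1.32 on its other probe set) by 2.35 ± 0.17, while 5 of 19 fell, among them Stat5b, Jak2 (-2.52 ± 0.09) and Stat6 (-2.37 ± 0.08). Stat3, the LIF effector, read 10.44, 10.48 and 10.37 on the iPS arrays and 10.38, 10.44 and 10.46 on the leukemia arrays, and its groups overlapped (0.00 ± 0.07, adjusted p = 0.964). Of 28 genes of the FGF pathway and its feedback 12 rose, with Spry2 (a feedback inhibitor, 4.15 ± 0.11) and Fgf4 (the ligand made by embryonic stem cells, 3.36 ± 0.12) behind Fgfbp1, and the phosphatase Dusp5 fell by 1.47 ± 0.08. Fgf8 (0.01 ± 0.10) and Fgf2 (-0.01 ± 0.12) were not called.

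Of 38 TGF-beta, BMP and Nodal genes 13 rose and 3 fell. Behind Tdgf1 stood the inhibitory Smad7 (3.48 ± 0.11) and the activin subunit Inhba (3.22 ± 0.19), while Bmp7 (-1.72 ± 0.07), Smad3 (-1.37 ± 0.10) and Tgfb1 (-1.03 ± 0.09) were lower. Tgfb1 was not called without leukemia replicate 3 (-0.98). Of 42 Wnt genes 8 rose, led by Tcf7l1 (a repressor of the pluripotency circuit, 2.99 ± 0.13), Sfrp1 (a secreted antagonist, 2.41 ± 0.19) and Lgr4 (a receptor, 2.40 ± 0.12). Lef1, which acts at the same DNA motif as Tcf7l1, was the only 1 that fell, and a second member crossed the 2-fold minimum without iPS replicate 2, iPS replicate 3 or leukemia replicate 1. Of 24 Toll-like receptor and NF-kB genes 11 fell, with the inhibitor Tnfaip3 at -4.03 ± 0.07 and the subunit Rel at -2.39 ± 0.07. The subunit Relb differed by -0.13 ± 0.07 and was not called.

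Antigen presentation was lower as well. Of 21 genes of MHC class I and the immunoproteasome 13 fell (median -1.73), among them H2-T10 (-4.39 ± 0.12), the immunoproteasome subunit Psmb8 (-4.11 ± 0.12) and the peptide trimmer Erap1 (-4.05 ± 0.08). B2m, the light chain of class I, read 9.84, 9.71 and 9.80 on the iPS arrays and 12.31, 12.27 and 12.19 on the leukemia arrays and fell by 2.48 ± 0.08. The chaperones Pdia3 (0.10 ± 0.07) and Calr (0.20 ± 0.07) were not called. Of 11 class II genes 7 fell, with H2-Ab1 at -4.08 ± 0.14, and the class II regulator Ciita differed by -0.29 ± 0.10, uncalled. Of 33 interferon-stimulated genes 16 fell (median -0.90), with the GTPases Igtp (-3.71 ± 0.13) and Gbp7 (-2.71 ± 0.12) and the chaperone Rtp4 (-2.56 ± 0.20) leading. With all 12 arrays in the fit 3 class II genes and 7 interferon-stimulated genes were lower. Dhx58 (-0.08 ± 0.10), Ifit1 (-0.14 ± 0.16) and Irgm1 (-0.20 ± 0.16) were not called. MHC and GTPase genes have close relatives, so probe sets of 1 may read another.

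Epithelial genes and fibroblast genes were both higher in iPS cells. Of 33 epithelial identity genes 18 rose (median 1.54). Cdh1 (E-cadherin) read 11.38, 11.40 and 11.41 on the iPS arrays and 5.93, 5.85 and 6.14 on the leukemia arrays, a difference of 5.42 ± 0.09. Its other probe set gave 2.18. Gja1 (connexin 43) followed with 4.54 ± 0.17 and Epcam with 4.14 ± 0.08, while Ovol1 (-0.05 ± 0.10), Rab25 (0.14 ± 0.08) and Spint2 (0.18 ± 0.12) were not called. Of 21 keratinocyte and squamous genes 5 rose, with Fgfbp1, Krt17 (4.03 ± 0.16) and Perp (4.01 ± 0.18) leading, and the epidermal Dsg3 (-0.01 ± 0.10), Pkp1 (-0.03 ± 0.13) and Krt1 (0.06 ± 0.10) not called. Of 13 regulators and markers of epithelial-mesenchymal transition 4 rose (Fn1, Cdh2 and the mesenchymal factor Twist1 leading) and 2 fell, Zeb1 (-2.01 ± 0.07) and Tgfb1.

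Of 35 fibroblast and feeder cell markers 24 rose (median 2.14), with a mean level of 8.24 to 8.33 on the iPS arrays and 5.94 to 6.02 on the leukemia arrays. Dcn (decorin) read 10.73, 10.64 and 10.81 on the iPS arrays and 4.99, 4.72 and 4.60 on the leukemia arrays, a difference of 5.96 ± 0.11. Bgn (biglycan) differed by 5.83 ± 0.15 on the probe set used and by 0.41 on its other one. Col1a1, the collagen locus that carries the cassette, read 8.82, 8.41 and 8.57 on the iPS arrays and 6.72, 6.87 and 6.57 on the leukemia arrays, a difference of 1.88 ± 0.12. Other defining fibroblast genes were not called: Col3a1 differed by 0.44 ± 0.12, Col5a2 by 0.52 ± 0.12 and Twist2 by -0.08 ± 0.10. Thy1, which thymocytes also carry, fell by 3.31 ± 0.09. Of 28 collagen genes 5 rose, with Col12a1 (2.68 ± 0.08) and Col18a1 (2.06 ± 0.16) above Col1a1. Of 30 integrins and laminins 12 rose and 6 fell. Itga5, the fibronectin receptor chain, rose by 4.13 ± 0.07, while the leukocyte chains Itga4 (-4.93 ± 0.10), Itgal (-4.06 ± 0.12) and Itgb2 (-3.69 ± 0.09) fell.

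Sex chromosome genes differed between the groups as well. Xist, the RNA that coats an inactive X chromosome, read 7.54, 7.82 and 7.57 on the iPS arrays and 11.45, 11.62 and 11.53 on the leukemia arrays and fell by 3.89 ± 0.10 (adjusted p = 1.31e-08), without overlap. The Y-linked Eif2s3y read 7.69, 7.24 and 7.01 on the iPS arrays and 4.40, 3.86 and 3.57 on the leukemia arrays, a difference of 3.37 ± 0.23, and Uty read 6.68, 6.69 and 6.75 on the iPS arrays and 4.63, 4.36 and 4.57 on the leukemia arrays, a difference of 2.19 ± 0.09. Both Y-linked genes were thus higher on every iPS array than on any leukemia array, but neither was called with all 12 arrays in the fit, and the Y-linked Kdm5d differed by 0.18 ± 0.11. The labels name no sex and describe the iPS cells as derived from the leukemia. The fibroblast markers above moved with the same groups, and their part in the sex chromosome differences was not tested. Jpx, an activator of Xist, fell by 1.15 ± 0.13 and was not called without leukemia replicate 3. On the X chromosome 81 of 899 genes (9.01%) were higher and 56 (6.23%) lower, against 7.95% and 6.29% of 21065 autosomal genes, with a median of -0.03 in both.

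**Figure D4:**
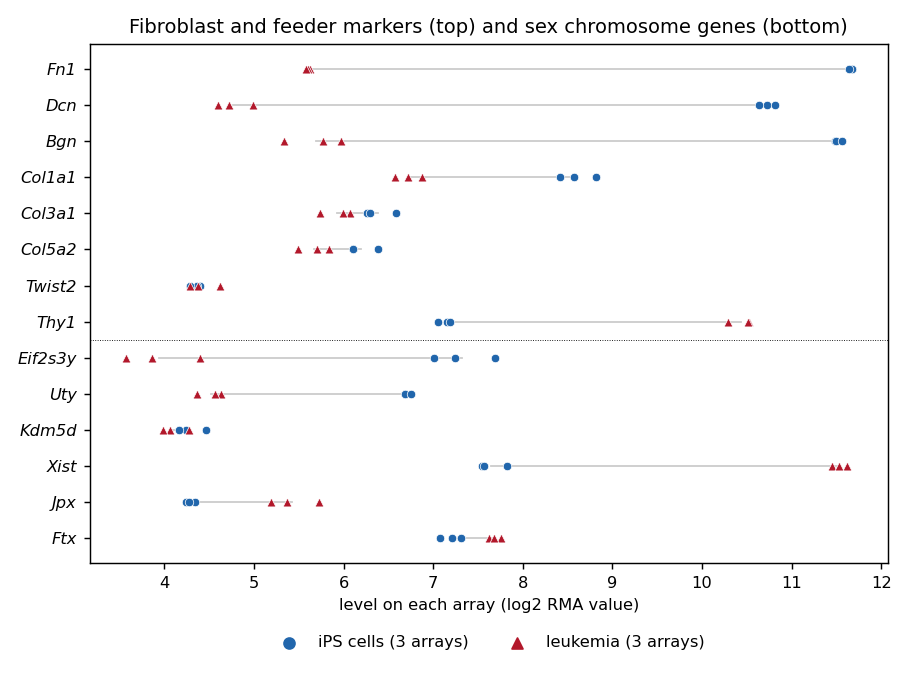
Level on every array (log2) of 8 fibroblast and feeder markers (above the dotted line) and 6 sex chromosome genes (below it), with blue circles for the 3 iPS arrays, red triangles for the 3 leukemia arrays and grey lines joining the group means. Fn1, Dcn and Bgn lie at 10.64 or above in iPS cells and at 5.97 or below in leukemia, Eif2s3y and Uty are higher on every iPS array, and Xist is at 7.54 to 7.82 against 11.45 to 11.62.

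A few chromatin regulators moved opposite to close relatives, while 9 of 17 DNA methylation genes and 20 of 30 Polycomb genes were not called. These relatives were picked out after their values were seen. The dioxygenases Tet1 (3.86 ± 0.09) and Tet2 (3.18 ± 0.09), which oxidise methylcytosine, rose, whereas Tet3 fell by 1.26 ± 0.09. Tet1 read 10.86, 10.83 and 10.93 on the iPS arrays and 7.09, 7.09 and 6.87 on the leukemia arrays. The methyltransferase cofactor Dnmt3l rose by 2.91 ± 0.19 and Dnmt3b by 2.31 ± 0.09, whereas Dnmt3a fell by 1.47 ± 0.10 and the methyl-binding Mbd2 by 1.53 ± 0.08. In all, 4 of 17 genes of this list rose and 4 fell (23.5% each, against 7.99% and 6.26% of all genes). Of 30 Polycomb genes 7 rose (23.3%) and 3 fell (10%). Phc1 rose by 3.05 ± 0.07, Pcgf2 by 2.31 ± 0.12 and the cofactor Epop by 2.19 ± 0.12, while Cbx8 fell by 1.36 ± 0.12, Bmi1 (the relative of Pcgf2) by 1.36 ± 0.18 and Phc3 by 1.04 ± 0.08 (-0.98 and uncalled without iPS replicate 2). Mtf2 (-0.04 ± 0.10), Rbbp4 (-0.09 ± 0.07) and Aebp2 (0.09 ± 0.07) were not called.

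Of 26 subunits of the BAF chromatin remodeller 6 fell: Bcl11b, a T lineage subunit, by 4.58 ± 0.09, the ATPase Smarca2 by 2.70 ± 0.10 and the scaffold Smarcc2 by 1.98 ± 0.08 led. Dpf2 (0.08 ± 0.08) and Smarcb1 (-0.10 ± 0.07), subunits found in most cells, were not called. Of 35 histone methyltransferases and demethylases 2 rose, Kdm5b (2.88 ± 0.07) and Prdm14 (2.34 ± 0.09), and 4 fell, among them Nsd2 (-2.63 ± 0.08), Setd7 (-2.23 ± 0.14) and Kdm6b (-1.12 ± 0.07). The shares were 5.71% higher and 11.4% lower, against 7.99% and 6.26% of all genes. The other probe set of Kdm6b gave 0.06. Of 34 imprinted genes 8 rose, led by Mest (4.54 ± 0.21), Grb10 (4.39 ± 0.19) and Phlda2 (2.90 ± 0.16), and Airn, a noncoding RNA, fell by 1.40 ± 0.11. Dlk1 read 6.18, 6.37 and 6.27 on the iPS arrays and 6.28, 6.23 and 6.38 on the leukemia arrays, and its groups overlapped (-0.02 ± 0.08). None of 36 Hox cluster genes was called by limma, with differences from -0.34 to 0.75. Without the 2-fold minimum 14 of them passed, 11 higher and 3 lower, and 15 had an unadjusted p under 0.05. Among all 22180 genes 10525 (47.5%) passed in this way, and 11813 had an unadjusted p under 0.05.

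Of 25 cyclins, kinases and their regulators 4 rose and 7 fell. Ccnd1 (cyclin D1) read 10.07, 10.16 and 10.13 on the iPS arrays and 6.26, 6.19 and 6.19 on the leukemia arrays, a difference of 3.91 ± 0.07. Ccnd2 rose by 2.93 ± 0.09 and Mycn, the embryonic relative of Myc, by 2.45 ± 0.13. E2f2 fell by 2.79 ± 0.09, Cdk6 by 2.17 ± 0.07 and the pocket protein Rbl1 differed by -2.11 ± 0.08, while Ccnb2 (-0.07 ± 0.07) and Cdk4 (0.11 ± 0.07) were not called. Of 34 replication and mitosis genes 3 rose (Hmmr, Aurka and Kif20a, by 1.04 to 1.14) and 3 fell (Cdc6 -1.36, Rrm1 -1.33 and Mki67 -1.15). These shares, 8.82% in each direction, lie near the 7.99% and 6.26% of all genes. Kif20a was not called without leukemia replicate 1 (0.96), and Mcm2 (0.10 ± 0.07) and Aurkb (-0.12 ± 0.07) were not called.

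Of 28 cell cycle inhibitors and p53 targets 9 rose and 5 fell. Cdkn1a (p21) read 10.31, 10.39 and 10.37 on the iPS arrays and 7.16, 7.24 and 7.20 on the leukemia arrays, a difference of 3.16 ± 0.07, and Plk2 rose by 3.08 ± 0.13 beside Perp. Cdkn2c (-1.93 ± 0.18), Ccng2 (-1.88 ± 0.09) and Btg2 (-1.71 ± 0.10) were lower. Of 18 genes of the Bcl2 family and its effectors 3 fell: Casp8 (-2.74 ± 0.07), Bcl2a1a (-1.95 ± 0.12) and Bcl2 (-1.87 ± 0.09), whose other probe set gave -0.16. Bok rose by 1.27 ± 0.11. The higher share of this list, 5.56%, lies under the 7.99% of all genes, and the lower share was 16.7%, against 6.26%. Of 30 DNA repair genes 2 rose, Msh6 (1.22 ± 0.07) and Terf1 (1.06 ± 0.08). This share, 6.67%, lies near the 7.99% of all genes called higher.

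Transport and metabolism held a few genes with large differences. Of 23 amino acid transporters 8 rose and 2 fell. Slc7a3, a cationic amino acid transporter, read 11.13, 11.14 and 11.08 on the iPS arrays and 4.97, 5.21 and 5.26 on the leukemia arrays, a difference of 5.97 ± 0.09. Slc38a4 rose by 5.77 ± 0.08 and Slc7a7 by 4.16 ± 0.11, whereas Slc43a1 fell by 2.91 ± 0.11 and Slc7a6 differed by -1.52 ± 0.10. The glycine cleavage genes Gldc (4.21 ± 0.11) and Amt (3.43 ± 0.09) were the 2 of 19 called in the serine, glycine and one-carbon list. That share, 10.5%, lies near the 7.99% of all genes called higher. Of 29 glycolysis genes 5 rose, with the glucose transporters Slc2a3 (2.92 ± 0.08) and Slc2a1 (2.54 ± 0.08, but -0.14 on its other probe set) and the hexokinase Hk2 (1.96 ± 0.11) leading, and the monocarboxylate transporter Slc16a1 fell by 1.44 ± 0.08. Of 22 cholesterol genes 3 rose and 2 fell, with the exporters Abca1 (2.37 ± 0.11) and Abcg1 (-1.85 ± 0.08) in opposite directions. Their shares were 13.6% higher and 9.09% lower, against 7.99% and 6.26% of all genes. Hsd17b7 (1.02 ± 0.10) stood at 0.96 to 0.99, uncalled, without iPS replicate 1, iPS replicate 3, leukemia replicate 1 or leukemia replicate 2. Of 30 glutathione and redox genes 7 rose, led by Gsta4 (4.91 ± 0.09), Gstm2 (4.10 ± 0.16) and Nqo1 (3.35 ± 0.11).

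Few genes of the respiratory chain and the ribosome passed the 2-fold minimum. None of 40 respiratory chain subunits was called by limma, with differences from -0.47 to 0.41. Without the 2-fold minimum 14 of them passed, 6 higher and 8 lower, and 19 had an unadjusted p under 0.05. Among all 22180 genes 10525 (47.5%) passed in this way, and 11813 had an unadjusted p under 0.05. Of 40 cytosolic ribosomal proteins the only 1 called was Rpl10l, and Rps9, Rps3 and Rpl19 differed by 0.01 to 0.02. Of 28 ribosome biogenesis genes 22 were higher without the 2-fold minimum and 2 with it, Rrp9 (1.16 ± 0.07) and Utp20 (1.04 ± 0.08, 0.99 and uncalled without leukemia replicate 1). With the minimum 7.14% of this list was higher, against 7.99% of all genes. Without it 24.5% of all genes were higher. Of 21 reference genes B2m and Gusb (-1.59 ± 0.07) fell (9.52%, against 6.26% of all genes), and Hprt differed by 0.02 ± 0.07.

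Splicing regulators went both ways. Of 27 splicing regulators 4 rose (14.8%, against 7.99% of all genes) and 5 fell (18.5%, against 6.26%). Esrp1, the epithelial splicing factor, rose by 3.71 ± 0.09, Khdrbs3 by 3.39 ± 0.10 and Rbfox2 by 2.76 ± 0.16. The muscleblind proteins Mbnl3 (-3.61 ± 0.07) and Mbnl1 (-2.47 ± 0.07) fell, and Mbnl2 differed by 0.12 ± 0.07. Celf2 fell by 1.80 ± 0.08, with -0.07 on its other probe set.

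**Figure D5:**
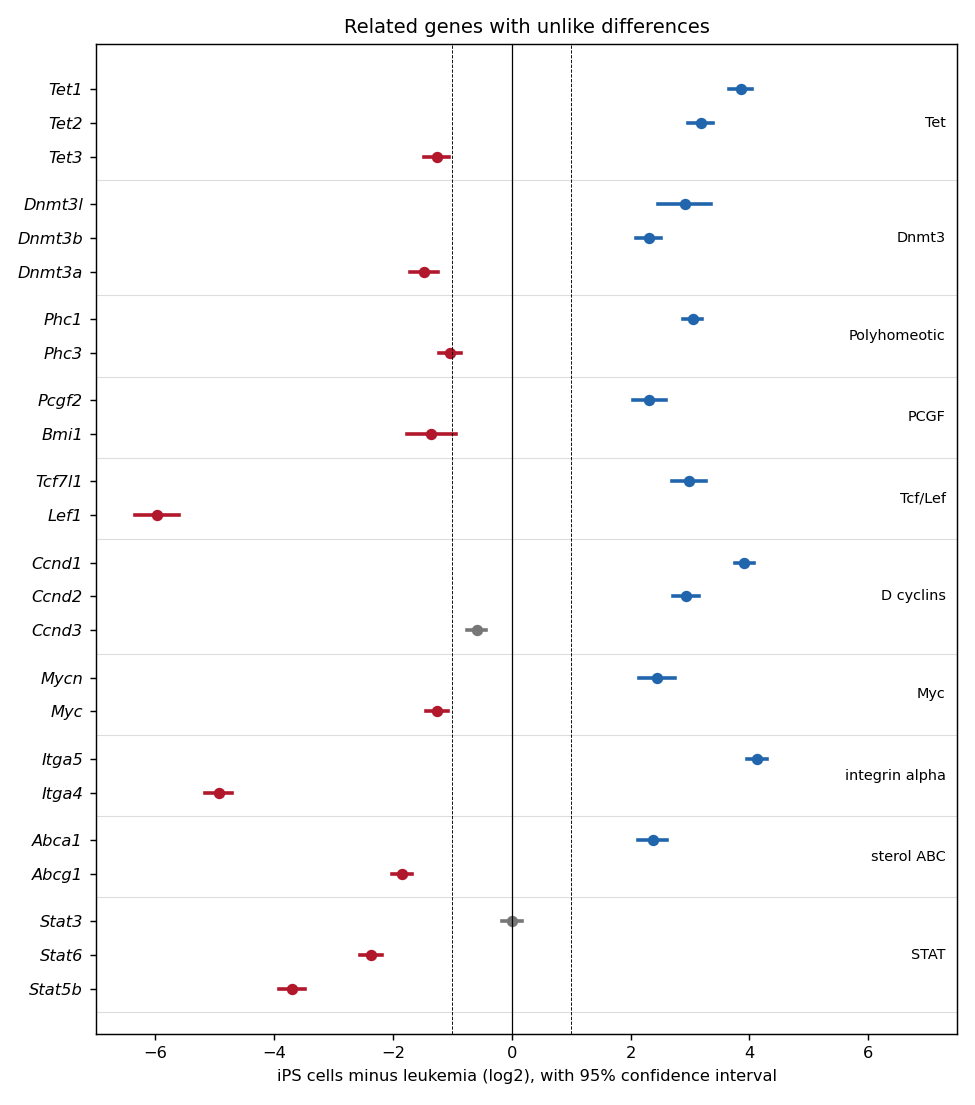
Differences between iPS cells and leukemia (log2, points) with 95% confidence intervals (bars) for related genes in 10 families, chosen after their values were seen (blue called higher, red called lower, grey not called, dashed lines 2-fold). Tet1 and Tet2 lie at 3.86 and 3.18 against -1.26 for Tet3, and Tcf7l1 at 2.99 against -5.97 for Lef1, while Ccnd3 (-0.59) did not follow Ccnd1 and Ccnd2.

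Among the iPS arrays replicate 2 read slightly higher on genes that were lower in iPS cells. On the 463 genes lower by at least 4-fold it was the highest of the 3 iPS arrays for 224 genes (48.4%), against 24.6% and 27% for replicates 1 and 3. The median levels of these genes were 5.69, 5.81 and 5.74 on iPS replicates 1, 2 and 3. Among the leukemia arrays replicate 2 was the highest for 41.3% of them. The cause was not tested. The mean level of the pan-haematopoietic list was 6.03, 6.22 and 6.06 on iPS replicates 1, 2 and 3. Without iPS replicate 2 the count of called genes was 3194, of which 3084 were called with all 6 arrays.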

How the data were processed

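RNA extracted with Trizol was labelled with biotin and hybridised to Affymetrix mouse arrays, per the labels' protocols. The deposited values are log2 intensities of 41345 probe sets, made by the authors with RMA per the submitters' processing notes; the software and its version are not stated in what was used here. Probe sets with exactly 1 gene symbol were kept (23521), and for the 1082 genes with several the probe set of highest average level across the 12 arrays stood for the gene, giving 22180 genes. limma 3.58.1 in R 4.3.3 was fitted to the 6 arrays alone (lmFit, eBayes, two-sided, Benjamini-Hochberg over all genes). A call needed an adjusted p under 0.05 and a difference of at least 2-fold. The fit was tested on simulated data over 22180 genes for this comparison, with 200 changed. Of changes of 1.5 on the log2 scale 96% were called, and of changes of 2, 99%. Of the calls 0% were false. Unchanged genes were simulated with no true difference and the measured spread between arrays. A 2-fold minimum then leaves little room for false calls, so the 0% does not measure false calls in the real arrays. Named genes were the 12 largest calls in each direction without overlap between groups, up to 3 called members per list and direction, up to 3 least different uncalled members, and a few marker genes. The members, lists and related-gene pairs were chosen with earlier results of these data known. Promoters and microRNAs are from RefSeq on GRCm38.p6, to which 21994 genes matched by identifier and 186 did not. Replicate numbers did not pair the arrays: deviations of same-numbered arrays correlated at -0.021, -0.026 and -0.018. Alternatives covered the arrays in the fit, a replicate block, normalization, a filter on low values, the probe set rule, the variance model, array weights, the test, the fold minimum and leaving out each array.
One gene list is not reported here.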

Additional observations from a re-analysis of the deposited data

How the results depend on the processing

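Leaving out 1 array at a time gave 3146 to 3211 called genes (main count 3162), 1765 to 1812 higher, 1364 to 1420 lower and a higher share of 55.8% to 56.7%. A 4-fold minimum gave 1149 calls, 686 higher and 463 lower, a higher share of 59.7%, and promoters with a CpG ratio of at least 0.6 in 48.6% of higher and 35.1% of lower genes. limma's treat test against a 2-fold minimum called 2109 genes, 1206 higher and 903 lower. Median centring moved the higher share to 49.2%, and cyclic loess moved the X chromosome median to 0.01. The replicate block gave 3162 calls, 1773 higher and 1389 lower, and changed no call of a named gene or list count. With the lowest probe set, Kdm6b stood at 0.06 and Slc2a1 at -0.14, the sign opposite to the main value; the cause was not tested. Of 396 named genes 219 were called, and 212 of these kept their call in every fit without 1 array; Tie1, Tgfb1, Phc3, Kif20a, Hsd17b7, Utp20 and Jpx lost it in at least 1. The filter on low values left no member of the pluripotency microRNA list. No detection values were used, so signal over background was not measured.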

Other observations

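Other gene families, read by symbol and chosen after their values were seen, differed in how many members were called. Zinc finger genes named Zfp had 52 higher (14.1%) and 14 lower (3.78%) members of 370, against 7.99% and 6.26% of all genes. Among the higher were Zfp979 (5.75), Zfp936 (4.59) and Zfp534 (4.54), log2 differences of iPS cells minus leukemia. Of 53 keratin genes 7 were higher (13.2%) and none lower, and of 10 Rhox genes 3 were higher (30%) and none lower. Of 8 Gimap genes, GTPases of lymphocytes, 5 were lower (62.5%, Gimap5 -3.30). So were 3 of 9 Slfn genes (33.3%, Slfn2 -3.17) and 9 of 20 immunoglobulin segments (45%). Of 19 Ly6 genes 6 were lower (31.6%) and 1 higher (5.26%), with Ly6d at -4.33. Histone genes had 11 lower members (22.9%) and 1 higher (2.08%) of 48. Olfactory receptors, which these cells are not known to use, had 3 calls among 1105 (0.271%), and vomeronasal receptors 1 among 289 (0.346%). Of all genes 14.3% were called. Members of such families share sequence, and probe sets of 1 may read another.

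Probe sets that the main analysis left out also held differences. Of 16010 probe sets with no symbol, 468 were higher and 994 lower (9.13% called), and of 1814 with several symbols 206 were higher and 104 lower (17.1%), against 14% of the 23521 with 1 symbol.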
